A study of Mus musculus with 6 samples.

Results

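The genes described are 9 genes of bone morphogenetic protein (BMP) signalling and its Id targets: the ligand gene Bmp4, the receptor genes Bmpr1a and Bmpr2, the signal transducer and inhibitor genes Smad5 and Smad6, the antagonist gene Nog, and the target genes Id1, Id2 and Id3. They were taken by gene symbol from the 23412 genes of the RNA-seq table, and all 9 were found. The RNA came from undifferentiated mouse embryonic stem cells (mESCs) of strain 129Sv, and the lines were wild type R1, the parental line, and HN, which is Htt-/-. In HN mESCs the promoter and exon 1 of Htt, the gene for huntingtin, are deleted. Each line had 3 libraries, 6 in all, from batches collected on 17 February (replicate 1), 20 February (replicate 2) and 2 March (replicate 3), so that libraries of the same number share a date. R1 and HN are each a single line, so a difference between them cannot be told apart from any other difference between these lines. Both lines had been grown alike, without feeder cells, in serum and leukemia inhibitory factor (LIF) with inhibitors of FGF and VEGF receptors (SU5402), MEK (PD184352) and GSK3 (CHIR99021). The study asked whether genes of neural differentiation are dysregulated in mESCs that lack Htt. Values are normalized counts, which are the reads on the exons of a gene divided by a size factor for the library.

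BMP ligands bind paired type I and type II receptors, which phosphorylate the transcription factors Smad1, Smad5 and Smad9, and these move with Smad4 to the nucleus. Id1, Id2 and Id3 are classical targets, and the Id proteins they encode bind the E proteins (Tcf3, Tcf4 and Tcf12) and keep them from DNA. In mESCs BMP4 acts with LIF to hold the cells undifferentiated, and BMP signals oppose the neural fate, whereas Noggin, the product of Nog, binds BMP4 and blocks it. Serum is a source of BMP activity, so that the level of Bmp4 mRNA is only a part of the signal that such cells receive.

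Htt itself had 230, 257 and 199 normalized counts in replicates 1, 2 and 3 of R1, and 18.3, 58.1 and 54.2 in those of HN. Between 1640391 and 3866717 reads per library fell on genes, and 3 reads, taken as the detection limit, correspond to 2.13 to 4.04 normalized counts. All 9 genes were above that limit in all 6 libraries. The 10 mESC markers, among them Pou5f1, Sox2 and Nanog, were expressed in every library, with summed levels of 12336 to 18121 in R1 and 12999 to 17518 in HN. The collection date as a block is described with the first comparison. With it, 4 of these markers were higher in HN (Nanog, Esrrb, Klf4 and Dppa5a) and 2 were lower (Zfp42 and Utf1). By the same test, 5.46% of all genes tested were higher and 4.02% were lower. The libraries of the third date stood apart in both lines. They had reads on the most genes (20675 in R1 and 20542 in HN, against 18133 to 19083 in the other libraries) and the lowest summed mESC markers (12336 and 12999, against 16063 to 18121). Results that rest on these libraries are therefore also given without them. In bulk RNA, fewer cells that express a gene and less of its mRNA per cell cannot be told apart.

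The levels of the 9 genes differed widely within 1 line. Per kb of exon (GENCODE M21), Bmp4 had the highest mean level in R1, 109 ± 66.7 (SD, n = 3), followed by Id1 at 77.9 ± 58.7 and Bmpr1a at 74.7 ± 13.7. Id3 (38.3 ± 10.95), Smad5 (23.9 ± 0.573), Smad6 (13.8 ± 5.18) and Nog (10.9 ± 12.6) were in between, and Id2 (2.61 ± 0.767) and Bmpr2 (2.26 ± 0.141) were lowest. Between neighbours in this order, the R1 libraries did not overlap for Bmpr1a and Id3, Id3 and Smad5, and Smad5 and Smad6, and they overlapped for the other neighbours. In HN the order began with Bmpr1a at 104 ± 3.63 per kb, ahead of Bmp4 at 81.3 ± 42.7 and Id1 at 44.7 ± 37.4. From Id3 (37.1 ± 22.4) down to Bmpr2 (2.23 ± 0.503) the order in HN was that of R1, and Smad5 (19.8 ± 0.540) and Smad6 (13.5 ± 2.08) were the neighbours whose HN libraries did not overlap. Relative to the mean, Bmp4, Id1 and Nog had the widest spread in R1, and Smad5 had a narrow one in both lines. The lengths are those of all annotated exons of a gene together, so a gene of which mainly short transcripts are made has a level per kb that is too low.

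**Figure D1:**
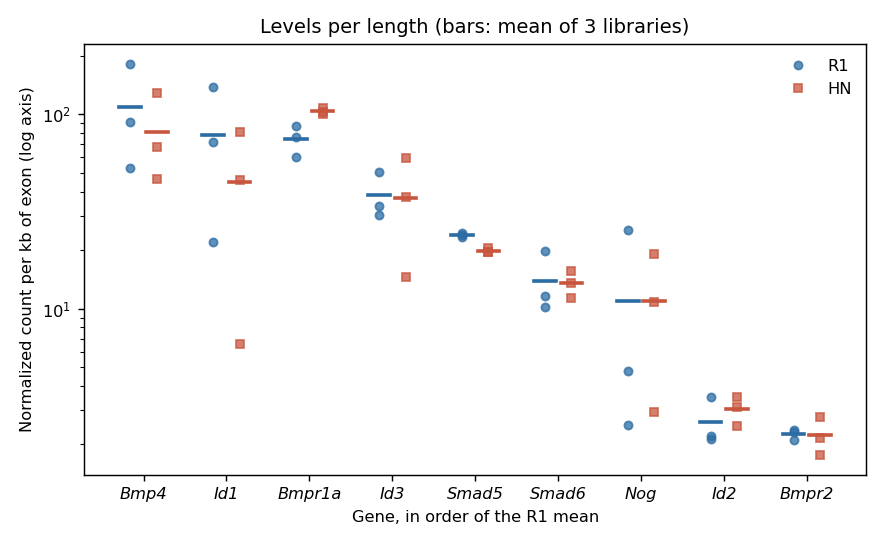
Level of each of the 9 genes in the 6 libraries, as the normalized count per kb of exon on a log axis, with R1 as circles, HN as squares and bars at the mean of 3 libraries per line. Bmp4, Id1 and Bmpr1a are highest (means of 74.7 to 109 per kb in R1), Id2 and Bmpr2 are lowest (2.26 to 2.61), and Smad5 has the tightest libraries.

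The first comparison asked which of these genes differ between HN and R1 mESCs. Without regard to the collection date, 0 of the 9 genes passed limma's test at a Benjamini-Hochberg (BH) adjusted p-value under 0.05 (written adjusted p), and 0.245% of the 14276 genes tested did so. At an unadjusted p-value under 0.05, 1 of the 9 passed (Bmpr1a), against 5.91% of all genes, and edgeR and DESeq2 on the recovered reads passed 0 as well. With the collection date as a replicate block, Bmpr1a was higher and Id1 was lower in HN, 2 of 9 genes against 9.48% of all genes tested (5.46% higher and 4.02% lower). A count of 2 in a list of 9 is given as a description of these genes and not as a result about the list. The other 7 genes did not pass. With the same block, 3 genes passed edgeR (Bmpr1a, Id1 and Bmp4), where 11.2% of all genes did, and 1 passed DESeq2 (Bmpr1a), where 3.59% did. The median log2 difference of the 9 genes was -0.04, beside -0.01 over all genes tested.

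Some cell type markers also differed between the lines with the date block. The counts below describe these lists, beside 5.46% higher and 4.02% lower among all genes tested. Of the 10 mESC markers, Klf4 was higher in HN by 0.52 on the log2 scale (adjusted p = 8.96e-04, limma with the block), while Zfp42 fell by 0.79 (6.37e-08) and Utf1 by 1.06 (1.34e-05). Nanog (0.28), Esrrb (0.37) and Dppa5a (0.27) were higher by less. The summed level of 6 trophoblast markers was 84.1 to 132 in R1 and 134 to 228 in HN. On the third date the lines were nearly level (132 and 134). Of the 5 tested, 1 passed as higher (Eomes, 0.96, adjusted p = 8.57e-05, limma with the block). Eomes alone had 63.9, 107 and 27.0 in R1 replicates 1, 2 and 3 and 142, 179 and 55.2 in those of HN. For 6 mesoderm markers the sums were 29.8 to 121 and 80.3 to 143, and 1 of 5 passed as higher (T, 1.21, adjusted p = 0.0010, limma with the block). The other tested mesoderm markers did not pass. Mixl1 (0.28), Kdr (1.11) and Hand2 (0.31) were higher in HN, and Foxf1 (-0.67) was lower. For 6 neural markers the sums were 264 to 317 and 164 to 263, so that the lines nearly met, and 1 of 6 passed as lower (Tubb3, -0.76). Tubb3 alone had 201, 269 and 133 in R1 and 82.7, 149 and 120 in HN. The other neural markers did not lean 1 way. Sox1 (0.30), Nes (0.53) and Neurog1 (0.25) were higher in HN, and Pax6 (-0.44) and Neurog2 (-0.41) were lower. For 7 fibroblast markers the sums were 38.5 to 106 and 12.8 to 69.3, and 1 of 4 passed as lower (Thy1, -1.54). For 7 primitive endoderm markers they were 41.4 to 175 and 41.8 to 151, and 0 of 7 passed. Elf5, Neurog1, Postn and Dcn were at 0 in at least 1 library. Their part in the line differences of Bmpr1a, Id1 and Bmp4 was not tested.

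**Figure D2:**
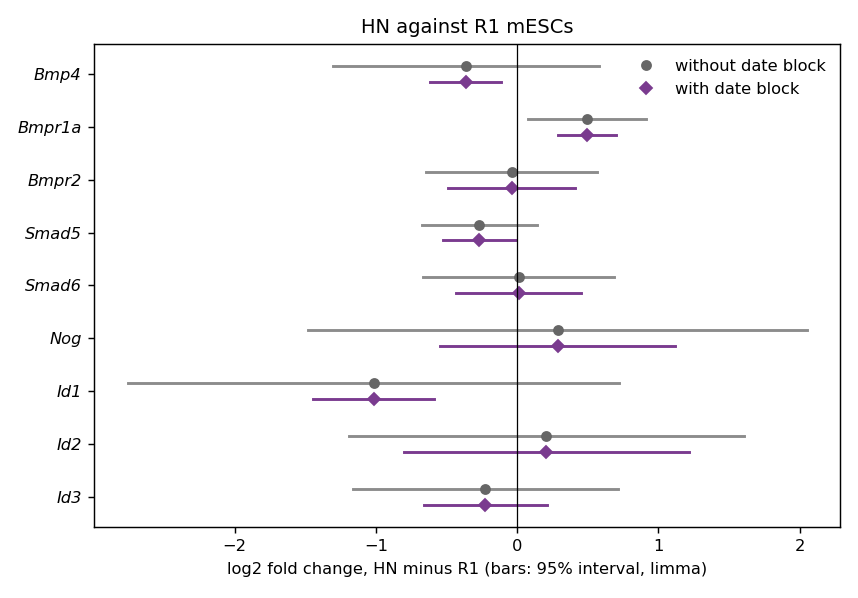
Log2 fold change between HN and R1 mESCs for each of the 9 genes, with 95% confidence intervals from limma without (circles) and with (diamonds) the collection date as a block. With the block, the intervals of Bmpr1a (0.29 to 0.70) and Id1 (-1.44 to -0.59) lie farthest from 0, and that of Nog (-0.55 to 1.12) is among the widest.

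Bmp4 (chr14:46383520-46390669 of GRCm38, minus strand) encodes the BMP ligand that mESCs are best known to respond to. Its normalized counts were 205, 411 and 119 in R1 and 153, 290 and 105 in HN replicates 1, 2 and 3. Within each line the second date was highest and the third lowest, and HN was below R1 on all 3 dates, although the lines overlapped. The HN to R1 ratios on the 3 dates were 0.746, 0.706 and 0.886, and the log2 fold change was -0.36 (standard error, SE, 0.43, adjusted p = 1.0, limma). With the date block the standard error was 0.12 and the 95% interval -0.61 to -0.12. Bmp4 then missed the threshold with limma (adjusted p = 0.0548) and DESeq2 (0.244) and passed it with edgeR (0.0185). Without the third date the blocked log2 fold change was -0.46, past the threshold (adjusted p = 0.00804, limma). Of the 9 genes, 3 were lower in HN on all 3 dates (Bmp4, Smad5 and Id1), against 21.1% of all genes tested. Of the exon bases of Bmp4, 3.96% also belong to Gm15217 on the opposite strand, and since the library kit does not mark strand, reads there cannot be told apart.

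Nog (chr11:89300638-89302332, minus strand) was low and variable. It had 4.26, 8.14 and 43.1 normalized counts in R1 and 18.3, 4.96 and 32.5 in HN, from 4 to 32 reads per library. The third date was highest in both lines, and the line that was higher differed from date to date. The log2 fold change was 0.29 (95% interval -0.55 to 1.12 and adjusted p = 0.766, limma with the date block), an interval that allows a change of more than 1 upward. Per kb of exon, the ratio of Bmp4 to Nog was 36.4, 38.0 and 2.07 in R1 and 6.33, 44.1 and 2.44 in HN, so that it was lowest on the third date in both lines.

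Bmpr1a (chr14:34410734-34503341, minus strand) encodes the type I receptor also called ALK3. It had 488, 553 and 381 normalized counts in R1 and 656, 685 and 640 in HN. All 3 HN libraries were above all 3 R1 libraries, and the 3 same-date ratios were 1.35, 1.24 and 1.68. Of the 9 genes, Bmpr1a and Smad5 were those whose lines did not overlap, 2 of 9 against 10.8% of all genes tested (5.23% higher and 5.54% lower in HN). Bmpr1a was also the 1 gene of the 9 that was higher in HN on all 3 dates, against 20.3% of all genes tested. Means were 474 ± 86.7 in R1 and 660 ± 23.0 in HN (SD, n = 3), a log2 fold change of 0.49 (SE 0.19, adjusted p = 0.72, limma). With the date block the standard error was 0.10 and the 95% interval 0.29 to 0.70 (adjusted p = 8.81e-04 with limma, 2.29e-04 with edgeR and 0.00542 with DESeq2). Without the third date, the blocked log2 fold change was 0.37 (adjusted p = 0.00762). Of its exon bases, 4.57% also belong to the antisense gene Gm17110, where reads cannot be told apart by strand.

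Bmpr1a lies on chromosome 14, whose genes were shifted as a group. The median log2 difference between HN and R1 of the 459 tested genes of chromosome 14 was 0.25, the highest of the 20 chromosomes examined (the next highest was 0.09, on X), and it was 0.24, 0.24 and 0.25 on the 3 dates. Of these genes, 78.4% were higher in HN, and 19.6% passed as higher with the date block, against 5.46% over all chromosomes. The 54 tested genes that start within 5 Mb of Bmpr1a had a median of 0.24, and 42 of them were higher in HN. Relative to the median of the other chromosome 14 genes, Bmpr1a was higher by 0.24 on the log2 scale, and 77.9% of those genes had a lower log2 difference. The part of the chromosome-wide shift in the Bmpr1a result was not tested. Bmp4, on the same chromosome, lay below that median by 0.62 on the log2 scale, and 5.24% of the other chromosome 14 genes had a lower log2 difference. For the other 7 genes, the medians of their chromosomes were between -0.08 and 0.02.

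Bmpr2 (chr1:59763400-59879014, plus strand), the type II BMP receptor gene, was the lowest of the 9 per kb. Its normalized counts of 42.6, 41.4 and 37.7 in R1 and 31.6, 49.6 and 39.0 in HN overlapped, with HN lower on the first date and higher on the others. The log2 fold change of -0.04 had a 95% interval of -0.49 to 0.41 with the date block (adjusted p = 0.953, limma).

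Smad5 (chr13:56703010-56742377, plus strand), a transducer of the BMP signal, had the smallest spread within each line relative to its mean. It had 181, 178 and 173 normalized counts in R1 and 145, 145 and 152 in HN, so that all HN libraries were below all R1 libraries. The means were 177 ± 4.25 and 147 ± 4.004 (SD, n = 3), and the log2 fold change was -0.27 (95% interval -0.52 to -0.01 with the date block). This missed the threshold after adjustment over all genes (adjusted p = 0.212, limma with the block). Smad6 (chr9:63953076-64022059, minus strand) encodes an inhibitory Smad that BMP signals induce. It had 37.3, 32.5 and 63.3 normalized counts in R1 and 36.5, 43.2 and 49.8 in HN. The lines overlapped, and the log2 fold change was 0.01 (95% interval -0.43 to 0.45 and adjusted p = 0.989, limma with the block).

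Id1 (chr2:152736251-152737410, plus strand) had the largest line difference of the 9 genes. Its normalized counts were 84.1, 161 and 25.6 in R1 and 53.5, 94.3 and 7.58 in HN. HN was below R1 on all 3 dates, with ratios of 0.637, 0.585 and 0.296, but the differences between dates were larger and the lines overlapped. The log2 fold change was -1.01 (SE 0.80, adjusted p = 1.0, limma), and with the date block the standard error was 0.21 and the 95% interval -1.44 to -0.59 (adjusted p = 0.00113 with limma, 6.50e-04 with edgeR and 0.0716 with DESeq2). It was the 1 gene of the 9 that passed limma with the block and had an absolute log2 fold change above 1, against 1.95% of all genes tested. By edgeR and DESeq2 with the block its log2 fold change was -0.82 and -0.90, so neither was above 1 in size. The same-date difference was largest on the third date, where HN replicate 3 had 7 reads. Without the third date the blocked log2 fold change was -0.71 (adjusted p = 0.00289, limma). With HN replicate 3 alone left out and no block it was 0.01. In that fit R1 kept the third date and HN did not, so the date difference enters the line difference.

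Id2 (chr12:25093799-25097140, minus strand) and Id3 (chr4:136143497-136145755, plus strand) did not pass. Id2 was near the detection limit, with 8.52, 5.18 and 5.39 normalized counts in R1 and 6.08, 8.51 and 7.58 in HN, from 4 to 12 reads per library. Its log2 fold change of 0.21 had a 95% interval of -0.80 to 1.22 with the block, so that a rise of 1 on the log2 scale lies within it. Id3 had 54.3, 91.0 and 60.7 normalized counts in R1 and 66.9, 106 and 26.0 in HN. It was higher in HN on the first and second dates (ratios of 1.23 and 1.17) and lower on the third (0.429). The log2 fold change was -0.22 (95% interval -0.66 to 0.21 and adjusted p = 0.615, limma with the block), and without the third date it was 0.26. Per kb of exon, the ratio of Id1 to Id3 was 2.39, 2.74 and 0.652 in R1 and 1.24, 1.37 and 0.4503 in HN, and it was thus lower in HN on each date.

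**Figure D3:**
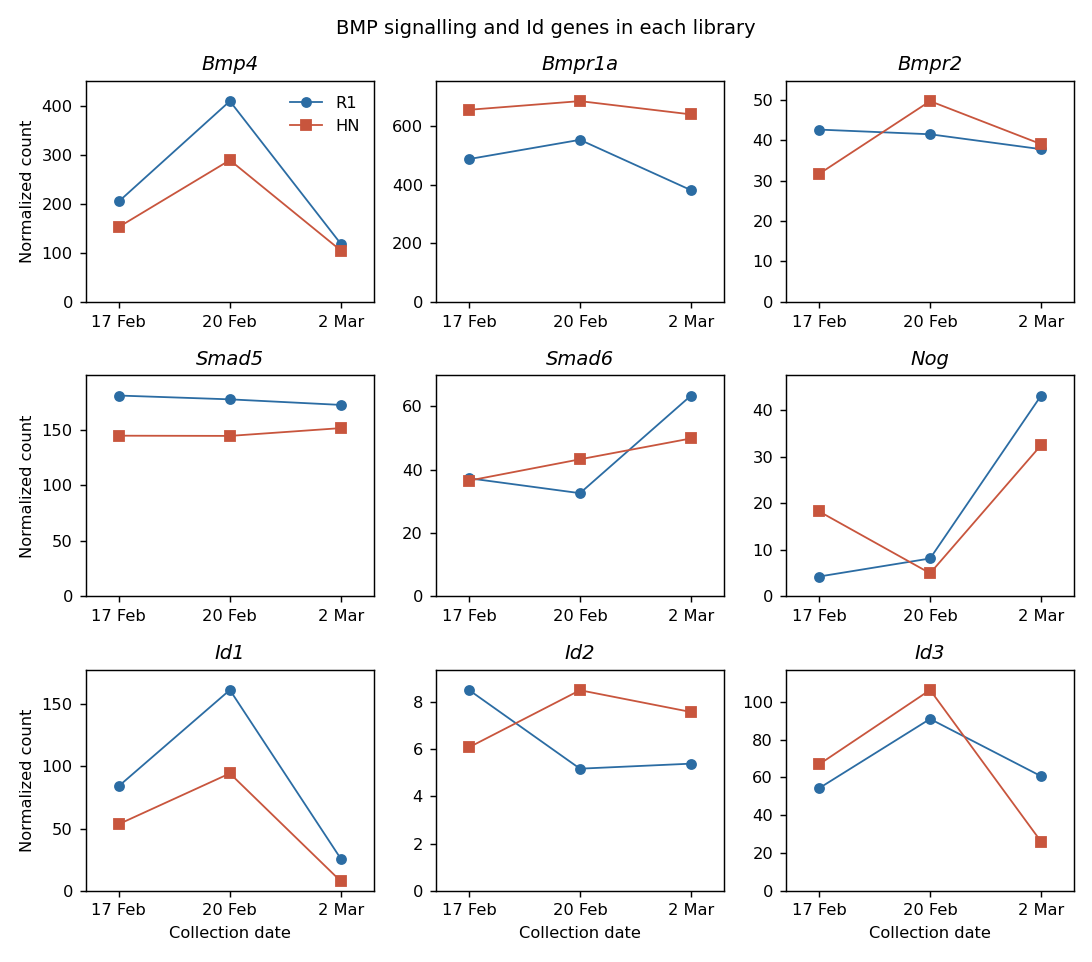
Normalized counts (y axis, from 0) of the 9 genes in each library by collection date (x axis), with R1 as circles and HN as squares, and 1 library per point. Bmpr1a is higher in HN on each date, Bmp4 and Id1 are lower in HN on each date and drop in both lines on 2 March, and Nog is highest on 2 March.

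The second comparison asked how the 9 genes differed between the collection dates, which both lines share. In limma's F-test between the dates, with the line as a term, 4 of the 9 genes passed (Bmp4, Id1, Id3 and Nog), against 46.0% of all genes tested. The share among the 9 was thus close to the background. The contrast of the third date with the mean of the other dates was chosen after values had been seen and is given as a description. Of the 4 genes, Bmp4, Id1 and Id3 were lower on the third date, as were 27.0% of all genes tested, and Nog was higher, as were 19.1%. Bmp4, Id1 and Id3 each had a mean above 50 normalized counts. Of all tested genes with a mean of 50 or more, 46.0% passed as lower on that date. Id1 fell by 2.61 on the log2 scale (SE 0.22, adjusted p of the F-test 4.50e-10), Bmp4 by 1.14 (0.13 and 4.70e-09) and Id3 by 0.94 (0.23 and 8.62e-04). These 3 genes were also higher on the second date than on the first, by 0.87, 0.96 and 0.70 on the log2 scale. In HN, Bmp4, Id1 and Id3 each had the second date highest and the third lowest. The share of all genes with this order was not counted, and a link between these 3 genes was not tested. In R1, Bmp4 and Id1 had that order, and for Id3 the first date was lowest (54.3) with the third next (60.7).

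Nog rose by 2.16 on the third date (SE 0.43, adjusted p of the F-test 6.27e-04, limma). Low genes as a whole were higher on that date. Of the 6617 tested genes with a mean of 5 to 50 normalized counts, 32.9% passed with a higher level on the third date and 4.91% with a lower one (median log2 difference 0.55). Of the 7659 genes with a mean of 50 or more, 7.13% passed as higher and 46.0% as lower (median -0.26). Markers of other cell types also moved with the date. The summed level of 7 primitive endoderm markers was 151 to 175 on the third date and 41.4 to 68.1 on the others, and all 7 were highest on the third date in both lines. For 6 mesoderm markers the sums were 121 to 143 against 29.8 to 89.3 (4 of 6 highest on the third date in both lines), and for 7 fibroblast markers 69.3 to 106 against 12.8 to 54.3 (5 of 7), where Postn and Dcn were at 0 in at least 1 library. For 6 trophoblast markers the sums were 132 to 134 against 84.1 to 228 (4 of 6), with Elf5 at 0 in at least 1 library. For 6 neural markers they were 263 to 309 against 164 to 317 (5 of 6), with Neurog1 at 0 in at least 1. The part of these cells, of the spread of low genes and of the number of genes read in the date differences of Nog, Bmp4, Id1 and Id3 was not tested. Bmpr1a (adjusted p = 0.0865), Smad6 (0.0960), Bmpr2 (0.595), Id2 (0.975) and Smad5 (0.995) did not pass between dates. With single libraries left out, Bmp4 and Id1 passed in all 6 fits, Nog did not pass without R1 replicate 3, Id3 did not pass without HN replicate 2, and Bmpr1a passed without R1 replicate 1, HN replicate 1 or HN replicate 3.

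The promoter sequences of Bmp4, which moved with the date, and Smad5, which was steady, are shown for comparison. They are the 250 bases before the annotated start, read 5′ to 3′ on the strand of the gene, from RefSeq on GRCm38.p6, whose table held 7 of the 9 genes (not Id1 and Nog). Capitals mark CANNTG, the general E-box. It is bound by E proteins and their partners, which Id proteins hold off DNA, and by other factors as well. The Bmp4 stretch (chr14:46390670-46390919, minus strand) holds 3 and the Smad5 stretch before the first of its 3 start sites (chr13:56702760-56703009, plus strand) holds 1.
Bmp4: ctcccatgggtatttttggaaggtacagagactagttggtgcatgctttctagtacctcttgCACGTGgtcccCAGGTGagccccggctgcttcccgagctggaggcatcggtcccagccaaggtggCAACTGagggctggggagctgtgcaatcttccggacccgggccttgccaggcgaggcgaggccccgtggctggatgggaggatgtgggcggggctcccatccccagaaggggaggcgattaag
Smad5: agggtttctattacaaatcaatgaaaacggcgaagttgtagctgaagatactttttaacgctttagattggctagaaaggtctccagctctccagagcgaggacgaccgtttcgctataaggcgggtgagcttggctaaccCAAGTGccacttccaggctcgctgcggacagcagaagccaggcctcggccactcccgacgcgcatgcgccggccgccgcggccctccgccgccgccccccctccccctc
Searched on both strands, CANNTG stands in 66.2% of 32851 promoters of the same length, GGCGCC, a Smad-binding motif for BMP signals, in 9.59%, and CAGAC, a general Smad-binding motif, in 42.2%. GGCGCC and CAGAC have 0 matches in the windows printed. The windows that overlap exons are not printed, and they differ. Before the second Smad5 start site there are 1 GGCGCC, 0 CAGAC and 1 CANNTG, and before the third 0, 1 and 0. Id3, which also moved with the date, has 0 GGCGCC, 2 CAGAC and 0 CANNTG. Bmpr1a, Bmpr2 and Id2 have 1 GGCGCC and 0 CAGAC each, with 0, 0 and 1 CANNTG. The Smad6 window overlaps no exon, is not printed either, and has 0 of each motif. A match or its absence describes these letters only.

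The other genes of the pathway were taken from a list of 73 genes by role, the 9 among them, of which 63 were tested and 10 had a mean below 5 normalized counts. Without the date block, 0 of the 63 passed limma's test (8 at an unadjusted p-value under 0.05, 7 higher and 1 lower in HN), and edgeR and DESeq2 without the block passed 0 as well. With the block, 8 were higher in HN (Gdf3, Bmpr1a, Neo1, Eng, Fst, Fstl1, Tbx3 and Tcf12) and 2 were lower (Zfp423 and Id1), beside 5.46% and 4.02% of all genes. DESeq2 with the block passed 5 of them (Bmpr1a, Fstl1, Gdf3, Neo1 and Tbx3). Small parts of the exons of Eng (1.51%), Fst (2.51%) and Tbx3 (1.74%) overlap a gene on the opposite strand, so their reads there are uncertain. The median log2 difference of the 63 genes was 0.04. The calls with the block leaned on single dates for 4 of the 10 genes. Eng, Tbx3, Tcf12 and Zfp423 did not pass without the second date (adjusted p = 0.495, 0.128, 0.221 and 0.110, limma with the block), and Zfp423 did not pass without the first date either (0.286). Counts by role are given as a description, to be read against these shares of all genes. By the F-test between dates 35 of the 63 passed, 20 higher and 15 lower on the third date (31.7% and 23.8%, beside 19.1% and 27.0% of all genes tested). Of the 63, 26 had a mean of 50 or more. Among all tested genes with a mean of 5 to 50, 32.9% passed as higher and 4.91% as lower. With a mean of 50 or more, 7.13% and 46.0% did so.

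Among the 11 ligand genes tested, 1 passed with the block. Gdf3, a divergent ligand that mESCs express, had 216, 336 and 170 normalized counts in R1 and 309, 499 and 284 in HN. It was higher in HN on each date, though the lines overlapped, and its log2 fold change was 0.61 (SE 0.11, adjusted p = 2.05e-04, limma with the block). Of the 13 receptors and co-receptors, 3 rose with the block and 0 fell, beside 5.46% and 4.02% of all genes tested. Besides Bmpr1a these were Neo1, the gene of the repulsive guidance molecule receptor neogenin, and Eng, the gene of the co-receptor endoglin. Neo1 had 169, 194 and 137 in R1 and 281, 279 and 235 in HN without overlap (log2 fold change 0.67, standard error 0.12, adjusted p = 1.44e-04, limma with the block). Eng had 58.5, 50.3 and 39.1 in R1 and 73.0, 119 and 60.7 in HN, also without overlap (0.72, 0.19 and 0.0106), but did not pass DESeq2 with the block (adjusted p = 0.156).

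Among the 10 extracellular antagonist genes tested, Fst and Fstl1 rose with the block and 0 fell, beside 5.46% and 4.02% of all genes tested. Fst encodes follistatin, which binds activins and, more weakly, BMPs. It had 4.26, 30.3 and 13.5 normalized counts in R1 and 75.4, 63.8 and 37.9 in HN. The lines did not overlap, and its log2 fold change of 2.11 (SE 0.34, adjusted p = 3.09e-05, limma with the block) was the largest of the 63 in size, but DESeq2 with the block did not pass it (adjusted p = 0.140). Without the first date the blocked log2 fold change was 1.24 (adjusted p = 9.87e-04, limma). Without R1 replicate 2, Fst passed limma without the block (adjusted p = 0.0486). Fstl1, a secreted relative of follistatin, had 458, 394 and 167 in R1 and 798, 760 and 340 in HN. It was higher in HN on each date and lower on the third date in both lines, with a log2 fold change of 0.92 (SE 0.10, adjusted p = 2.80e-08 by limma with the block and 3.37e-10 by DESeq2 with the block).

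Of the 6 Smad genes, 0 passed between the lines with the block. Smad7, an inhibitory Smad gene, had the highest level per kb of the 6 over all libraries, although Smad4 was above it in HN (71.7 against 70.2). It had 549, 364 and 270 in R1 and 392, 315 and 246 in HN (log2 fold change -0.28, adjusted p = 0.106, limma with the block). Like Bmp4 and Id1 it was lower on the third date, where it fell by 0.62 on the log2 scale (adjusted p of the F-test 3.00e-05). Of the 8 intracellular regulators, 1 passed with the block. Zfp423, which encodes a zinc finger partner of BMP Smads, had 39.4, 89.5 and 41.8 in R1 and 13.4, 70.9 and 28.2 in HN. It was lower in HN on each date (log2 fold change -0.79, standard error 0.23, adjusted p = 0.0244, limma with the block), with 11 reads in HN replicate 1, but did not pass DESeq2 with the block (adjusted p = 0.319). Without the first date the blocked log2 fold change was -0.44. Zfp423 lies on chromosome 8, whose 705 tested genes had a median log2 difference between HN and R1 of -0.22, the lowest of the chromosomes examined. Of these genes, 14.3% passed as lower with the block, against 4.02% of all genes tested. The part of this shift in the Zfp423 result was not tested. Smurf2, a ubiquitin ligase gene, had the highest level per kb in this role over all libraries and was level with Tob1 in HN (39.5 each). It had a log2 fold change of 0.06 (adjusted p = 0.845, limma with the block).

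Of the 12 target genes tested, Tbx3 rose and Id1 fell with the block. Tbx3, which encodes a T-box factor of undifferentiated mESCs, had 387, 330 and 317 in R1 and 577, 500 and 384 in HN (log2 fold change 0.48, standard error 0.10, adjusted p = 0.00161, limma with the block). Dusp9, an ERK phosphatase gene and a target of BMP signals in mESCs, had the highest level per kb of the role. Its normalized counts were 653, 623 and 268 in R1 and 475, 625 and 285 in HN, a log2 fold change of -0.12 (adjusted p = 0.57, limma with the block). On the third date Dusp9 fell by 1.09 on the log2 scale over both lines (adjusted p of the F-test 4.19e-08). Among the 3 E protein genes, Tcf12 rose with the block. It had 83.0, 101 and 113 in R1 and 148, 179 and 127 in HN without overlap (log2 fold change 0.61, standard error 0.15, adjusted p = 0.00585 by limma and 0.103 by DESeq2, both with the block). Tcf3, the most abundant of them per kb, had a log2 fold change of 0.15 (adjusted p = 0.476, limma with the block).

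**Figure D4:**
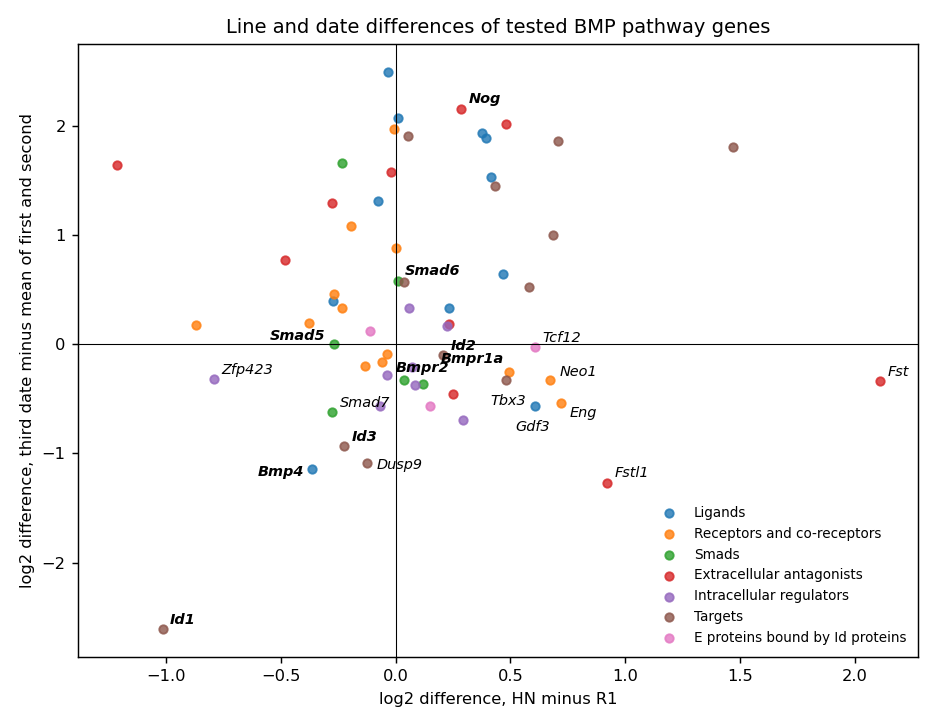
Log2 difference between HN and R1 (x axis) against the log2 difference between the third date and the mean of the other dates (y axis) for the 63 tested genes of the pathway list, coloured by role, with 1 point per gene. The 9 genes described are in bold: Id1 lies lowest (-1.01 and -2.61), Nog is among the genes highest on the third date (2.16), and Fst has the largest line difference (2.11).

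The genes whose pattern over the 6 libraries was most like that of Id1 and Bmp4 were sought among 7642 genes with a mean of at least 50 normalized counts. Likeness was the mean absolute difference between the log2 deviations of 2 genes from their own 6-library means, so that a value of 0 means the same pattern. For Id1 the nearest were Ccdc3 (0.398), Spry4 (0.412) and Ppm1j (0.482), where the median over the genes compared was 1.06. Spry4, which encodes an inhibitor of receptor tyrosine kinase signals, had 245, 585 and 146 normalized counts in R1 and 157, 426 and 57.4 in HN, in the same order over dates as Id1. For Bmp4 the nearest were Slc7a7 (0.0886), Lck (0.101) and Crip2 (0.124), with a median of 0.530. Slc7a7 had 160, 296 and 79.5 in R1 and 110, 237 and 70.4 in HN. The libraries share their dates and depths, so these values describe the 6 libraries only.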

How the data were processed

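RNA-seq was made from 3 batches each of R1 and HN mESCs with a kit that does not mark strand. The authors used STAR to align paired-end reads to mm10/GRCm38, Picard to take out PCR duplicates, HTSeq to count reads on exons and DESeq2 to normalize them. The versions and the gene annotation are not given in the sources used here. Each deposited value is thus a signal for 1 gene in 1 library, here called a normalized count. All of them (100%) were whole multiples of 1 read (tolerance 0.01 read), so reads were recovered for depth and for count tests.

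Genes with a mean of at least 5 over the 6 libraries were tested with limma 3.58.1 (R 4.3.3, variance trend) on log2(normalized count + 1), which understates changes of low genes. A gene passes at a BH-adjusted p-value under 0.05 over all genes tested. The main design has no block, since the study's methods name none. Replicates of the same number share a collection date in the labels. The deviations of same-date libraries had correlations across genes of 0.25, 0.69 and 0.77 (replicates 1, 2 and 3), against -0.71 to 0.34 for different dates. Same-date libraries thus deviated together most clearly for replicates 2 and 3. R1 replicate 1 had a higher correlation with HN replicate 2 (0.34) than with HN replicate 1 (0.25). HN replicate 1 was below 0 with R1 replicates 2 and 3 (-0.098 and -0.10). For replicate 1 the block thus rests more on the labels than on the values. Values with the date as a block are given where they change a call. Replicates of 1 line are separate batches by date. An exact permutation test of 3 against 3 cannot give a p-value below 0.1 and was not used. edgeR 4.0.16 and DESeq2 1.42.0 on recovered reads, other pseudocounts, filters and scalings, and leaving out libraries were alternatives. Alternatives of the date test without a filter or a library, and those that join the block with another scaling or filter, were chosen after seeing the data, as were the chromosome medians and the comparison of markers between the lines. The markers named there are those that passed with the block, the other tested neural and mesoderm markers, and those at 0 in a library. The limma, edgeR and DESeq2 steps were tested on simulated data for 14276 genes. For the line comparison, limma passed 4% of genes changed by 1 on the log2 scale and 52% of those changed by 2, and 71% and 90% with the block. The simulated date effects were the same in both lines, which favours the block. In the data the same-date libraries were less alike, most of all on the first date. The shares with the block thus describe exact pairing only.

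The members and lists were chosen with earlier results of these data known. Named genes are the 9 members, Htt, every gene of the 73-gene list that passed limma with or without the block, the gene with the highest level per kb in each role (mean of all libraries), and the 3 genes most like Id1 and Bmp4. Positions, exon lengths and the 13425 genes used for chromosome medians come from GENCODE M21 for GRCm38. Of the table's gene names, 27 were turned into dates, and these genes are not named.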

Additional observations from a re-analysis of the deposited data

How the results depend on the processing

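Between the lines, 35 genes passed in the design without a block. The replicate block gave 1354 genes (1605 by edgeR and 512 by DESeq2, with 1570 after median centring and 1365 after quantile normalization), and DESeq2 without it gave 112. Without a filter or a variance trend 0 genes passed (1198 and 767 at an unadjusted p-value under 0.05, and 2840 without a filter but with the block, where 0 passed after adjustment). Leaving out 1 library gave 8 (without R1 replicate 1) to 55 genes (without R1 replicate 3), with 13 without HN replicate 1. With the block, leaving out the replicate pairs 1, 2 and 3 in turn gave 1127, 494 and 1683. Of the 9 BMP and Id genes, 0 passed without the block under every alternative. With it, 2 passed by limma, 3 by edgeR, 1 by DESeq2, 3 with quantile normalization, 2 with median centring, and 2, 2 and 3 with the pairs left out. Of the wider list, 10 passed with the block (12 by edgeR, 5 by DESeq2, 11 with quantile normalization, 11 with median centring, and 9, 6 and 13 with the pairs left out), and 0 to 1 with single libraries left out, the 1 being Fst without R1 replicate 2. Between dates 6569 genes passed, 4090 with a mean of at least 50, 4203 with quantile normalization, 3292 (without HN replicate 2) to 7545 with single libraries left out, and 3586 without R1 replicate 2. Of the 9 genes 4 passed, and 3 to 5 with single libraries left out. Without a variance trend or without a filter, 0 genes and 0 of the 9 passed between dates (5326 and 6724 genes, and 3 and 2 of the 9, at an unadjusted p-value under 0.05). The cause was not tested.

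The log2 fold change of Bmpr1a and Smad5 kept its direction under all alternatives. With single libraries left out, Bmp4 ranged from -0.79 to 0.10 (reversed without R1 replicate 2). Id1 ranged from -1.73 to 0.0092 (reversed without HN replicate 3), Bmpr2 from -0.20 to 0.12 and Id3 from -0.67 to 0.33. These fits have no block and keep the date of the missing library in the other line only, so date differences enter them. Bmpr2 turned to 0.0069 by edgeR with the block, 0.035 with quantile normalization with and without the block, and 0.15 with the block and without pair 1. Smad6 turned to -0.0097 by edgeR, -0.031 by DESeq2, -0.0039 with quantile normalization with and without the block and -0.18 with the block and without pair 2, and ranged from -0.18 to 0.29 with single libraries left out. Nog turned to -0.00051 by DESeq2 and to -0.51 with the block and without pair 1, and ranged from -0.36 to 1.18 with single libraries left out. Id2 turned to -0.00044 with the block and without pair 2, and Id3 to 0.26 with the block and without pair 3. The direction of Bmpr2, Smad6, Nog, Id2 and Id3 between the lines is thus not settled here. Id2 turned in 1 of 23 alternatives. Bmp4 and Id1 each turned in 1 of 24, with a single library left out. Depth limits Id2 and Nog most, at 4 to 12 and 4 to 32 reads per library, and intervals there cover the spread between libraries only.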
